A study of Mus musculus with 6 samples.

Results

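The chaperonins examined here are 10 genes chosen by function: the 8 subunits of the cytosolic chaperonin TRiC, also called CCT (Tcp1, Cct2, Cct3, Cct4, Cct5, Cct6a, Cct7 and Cct8), and the mitochondrial chaperonin Hspd1 (Hsp60) with its lid Hspe1 (Hsp10). They are 10 of the 20433 gene names that could be read in the deposited table, and each has a single row there. The mRNA was sequenced from follicular B cells that were sorted as B220+, AA4.1-, CD23+ and CD21lo from C57BL/6 mice. There were 3 samples of CD23Cre+Myh9wt/fl mice and 3 of CD23Cre+Myh9fl/fl mice. All 6 carried Cre under control of the CD23 (Fcer2) gene, which is switched on late in B cell maturation. Of Myh9, the gene of the myosin IIa heavy chain, 1 allele was floxed in the wt/fl mice and both were in the fl/fl mice. Cre deletes floxed Myh9 in these B cells. The control cells were therefore haploinsufficient rather than wild-type. The authors merged the 3 samples of a genotype into 1 value, expressed as FPKM, a fragment count corrected for how long a transcript is and for how many fragments were mapped. The spread between mice is therefore not known for these values, the ratios have no replicate check, and read depth is unknown. A ratio in sorted bulk cells also cannot tell fewer cells of a type from less RNA per cell.

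Chaperonins are barrel-shaped protein complexes that enclose an unfolded protein and use cycles of ATP hydrolysis to let it fold. TRiC is built from rings of different but related subunits and folds cytoskeletal proteins above all, among them actin and tubulin, as well as many proteins with WD40 repeats. Prefoldin hands actin and tubulin chains to it. Hsp60 and Hsp10 fold proteins imported into the mitochondrial matrix, where the mitochondrial Hsp70 (Hspa9) precedes them. Heat shock factors act on promoters through heat shock elements, which are repeats of a short unit in alternating orientation, and the Hsp60 and Hsp10 genes lie head to head around a shared promoter.

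The deposited values placed Hspd1 on chromosome 1 from 55134678 to 55144776 and Hspe1 from 55144992 to 55148161 (mm9), with 215 bases between them. In RefSeq on GRCm38, an annotated start of Hspd1 (55088243) lies beyond the start of Hspe1 (55088148), so the annotated genes overlap there. RefSeq promoter windows on GRCm38.p6, which run from 250 bases before an annotated start to 50 bases after it, were used for 9 of the 10 genes, all but Cct4, in 12 windows. They were searched on both strands for the core of a heat shock element, which is a pair of facing units spelled GAANNTTC or TTCNNGAA, for the same element with a row of 3 units (GAANNTTCNNGAA or TTCNNGAANNTTC), for the CCAAT box and for the E box CACGTG. The row of 3 units contains the pair by construction and was added to the search after these sequences had been looked at. The stretches that follow were chosen because they hold the longest heat shock element match of each chaperonin gene that has one, with the match in capitals, and because Hsph1 and Chordc1 are the chaperone genes of the comparison lists whose windows also hold the row of 3 units. Each is 30 bases, 5′ to 3′ in the direction of transcription of the named gene.
Hspe1, chr1:55088053-55088082, plus strand: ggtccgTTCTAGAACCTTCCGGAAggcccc
Hsph1, chr5:149636287-149636316, minus strand: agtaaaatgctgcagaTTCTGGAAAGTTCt
Chordc1, chr9:18292260-18292289, plus strand: ccgGAACGTTCGGGAAAATTCCTGAAgcag
Cct2, chr10:117063399-117063428, minus strand: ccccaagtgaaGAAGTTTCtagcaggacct
Cct5, chr15:31601862-31601891, minus strand: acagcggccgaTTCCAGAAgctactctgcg
Cct6a, chr5:129787369-129787398, plus strand: gcgtaagacttTTCGAGAAgaccccgcaga

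The 18 bases in capitals at Hspe1 run from 89 to 72 bases before its annotated start. They hold 2 overlapping rows of 3 units, and on the other strand the same bases lie from 144 to 127 bases before 1 of the 2 annotated starts of Hspd1. Relative to the other Hspd1 start, they lie downstream. Among all 32851 windows of the RefSeq table, 0.603% held a row of 3 units, and among the chaperonins only the windows of Hspd1 and Hspe1 did. The pair of units was much more common, in 15.1% of all windows, and was present in windows of 5 of the 9 chaperonin genes, namely Hspd1, Hspe1, Cct2, Cct5 and Cct6a. A CCAAT box stood in 37.4% of all windows and in those of 5 chaperonin genes, with 3 matches at Cct7, 2 each at Cct3 and Cct6a, and 1 each at Tcp1 and Hspd1. An E box stood in 7.15% of all windows and, among the chaperonins, only at the other start of Hspd1. The windows of Cct8 held none of these letters. A match describes the sequence and does not show that a factor was bound in these cells.

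**Figure D1:**
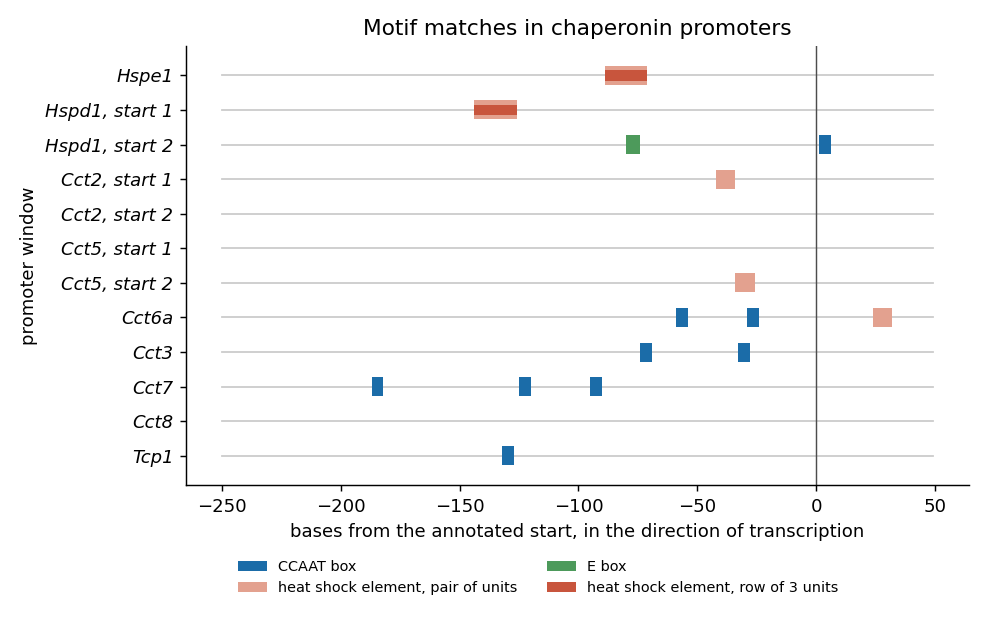
Motif matches in the 12 RefSeq promoter windows (GRCm38.p6) of 9 chaperonin genes, with the distance from the annotated start in bases on the horizontal axis and 1 window per line. The row of 3 heat shock element units appears only in the windows of Hspe1 and of 1 start of Hspd1, whereas CCAAT boxes appear in 5 genes.

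Myh9, the deleted gene, was at 50.6 FPKM in wt/fl against 21.1 FPKM in fl/fl cells, so the fl/fl level was 41.7% of the haploinsufficient one. In these mice LoxP sites flank a single exon of Myh9. The FPKM was not limited to that exon and so does not measure how complete the deletion was. The 10 B cell markers were present in both genotypes, with Cd79b at 1638 and 1739 FPKM and Cd79a at 1098 and 1115 FPKM in wt/fl and fl/fl. The 9866 genes that averaged 1 FPKM or more had a median log2 ratio of 0.0026 between fl/fl and wt/fl, after 1 was added to each FPKM. This log2 ratio of FPKM plus 1 is the measure of difference used throughout, and it understates the change of weakly expressed genes, strongly so near 1 FPKM.

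Of the 10 chaperonin genes, 9 were lower in fl/fl than in wt/fl cells, beside 4880 of the 9866 genes that averaged 1 FPKM or more. Among the 1473 genes that averaged 50 FPKM or more, 649 were lower. The mitochondrial pair differed most, by about the same factor for both genes, while the TRiC subunits differed little or, for Cct2, hardly at all. A ratio of at least 1.2-fold was reached by 3 of the 10 genes, all lower in fl/fl (Hspd1, Hspe1 and Cct3), and by 0 in the other direction. Over all 9866 genes, 8.33% were lower by 1.2-fold or more and 7.23% were higher. Every chaperonin gene had a mean above 50 FPKM, where ratios scatter less, and among the 1473 genes at or above that level 4.82% were lower and 4.21% higher by that factor. With a factor of 1.1, 5 of the 10 genes were lower, beside 20.2% of all genes and 177 of the 1473. With a factor of 1.5, 0 were, beside 1.53% of all genes and 20 of the 1473. Hspd1 and Hspe1 fell just short of it, with wt/fl levels 1.498 and 1.46 times those in fl/fl. Cct3 lay just inside the 1.2-fold limit, with a wt/fl level 1.22 times that in fl/fl, and Cct8 just outside it at 1.18 times.

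**Figure D2:**
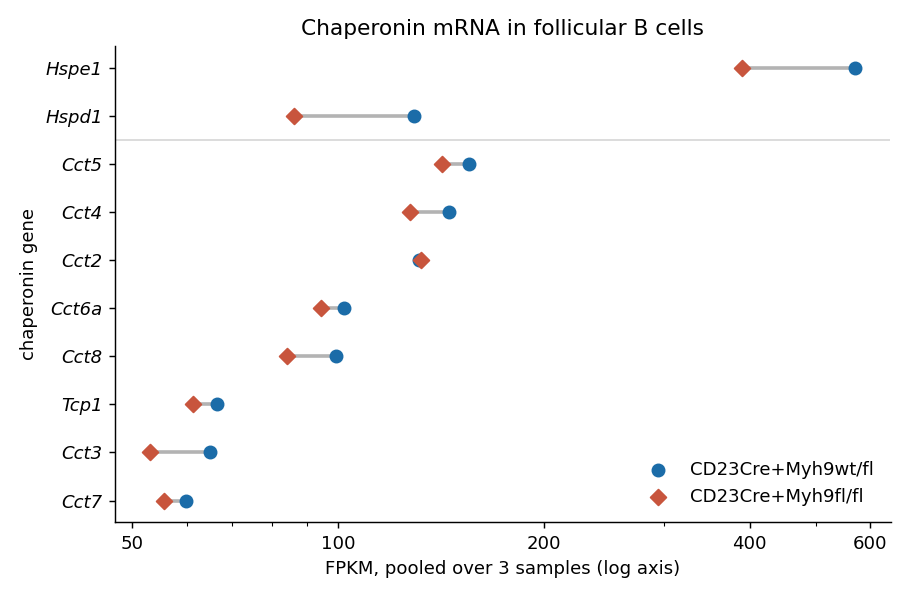
FPKM of the 10 chaperonin genes (log axis) in CD23Cre+Myh9wt/fl (circles) and CD23Cre+Myh9fl/fl (diamonds) follicular B cells, each point being the value the authors pooled over 3 samples, with no error available. The diamond lies to the left of the circle for 9 genes, and the gap is widest for Hspd1 (129 and 86.1 FPKM) and Hspe1 (571 and 390 FPKM). Of the 1473 genes that averaged 50 FPKM or more, 649 were lower in fl/fl.

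Hspe1, which encodes the ring that closes the mitochondrial barrel, was the most abundant chaperonin mRNA, at 571 FPKM in wt/fl against 390 FPKM in fl/fl cells. The fl/fl level was 68.3% of the wt/fl level, a log2 ratio of −0.55. Hspd1, which encodes the barrel itself, was at 129 FPKM in wt/fl against 86.1 FPKM in fl/fl cells. That is 66.8% of the wt/fl level and a log2 ratio of −0.58. The mRNAs of barrel and lid were thus lower by nearly the same factor, and the level of Hspe1 was 4.43 times that of Hspd1 in wt/fl and 4.53 times in fl/fl cells. Among the 1473 genes that averaged 50 FPKM or more, 22 had a log2 ratio as low as that of Hspe1 or lower, Hspd1 and Hspe1 included. GENCODE M21 lists copies named as pseudogenes or related sequences of both genes (5 for Hspd1 and 6 for Hspe1), and 1 each for Tcp1 and Cct3. They were counted by name only, without a comparison of sequences. How the authors' counting split fragments among such copies is not given in the sources used here.

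The TRiC genes are scattered over the genome, each on a chromosome of its own (mm9). The deposited positions were Cct3 on chromosome 3 from 88101057 to 88125688, Cct6a on chromosome 5 from 130293261 to 130322231, Cct7 on chromosome 6 from 85396779 to 85418471 and Cct2 on chromosome 10 from 116488054 to 116500870. The others were Cct4 on chromosome 11 from 22890593 to 22903336, Cct5 on chromosome 15 from 31520639 to 31531559, Cct8 on chromosome 16 from 87455230 to 87496114 and Tcp1 on chromosome 17 from 13109331 to 13133262. For Cct7, Cct8 and Tcp1 the deposited span is longer than the RefSeq gene on GRCm38 (21693 against 16973 bases, 40885 against 12545 bases and 23932 against 8739 bases).

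Cct5 had the highest level of the TRiC subunits in both genotypes, at 155 FPKM in wt/fl against 142 FPKM in fl/fl cells, a log2 ratio of −0.13. Cct4 was at 145 and 127 FPKM, a log2 ratio of −0.19. Cct2 was at 131 FPKM in wt/fl against 132 FPKM in fl/fl cells, a log2 ratio of 0.0079. It was the only subunit that was not lower in fl/fl, and it passed Cct4 to take second place in the order of levels.
Cct6a was at 102 and 94.2 FPKM in wt/fl and fl/fl, a log2 ratio of −0.11. Cct8 was at 99.1 and 84.1 FPKM, a log2 ratio of −0.23. Tcp1, the founding member of the family and subunit alpha of the ring, was at 66.5 and 61.4 FPKM, a log2 ratio of −0.11. The ratios of these subunits, other than Cct8, were close to one another and small.
Cct3 was at 64.9 FPKM in wt/fl against 53.1 FPKM in fl/fl cells, a log2 ratio of −0.28 and the lowest of the 8. Cct7 was at 59.8 and 55.5 FPKM, a log2 ratio of −0.11. With these values Cct3 and Cct7 changed places at the bottom of the order, so that Cct7 had the lowest level in wt/fl and Cct3 in fl/fl. Without replicates, none of these neighbours in the order can be shown to differ.

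Summed over the 8 subunits, TRiC mRNA was at 824 FPKM in wt/fl against 749.6 FPKM in fl/fl cells, or 90.9% of the wt/fl level. Summed over Hspd1 and Hspe1, the fl/fl level was 68.0% of the wt/fl level. The median log2 ratio was −0.12 over the TRiC genes (range −0.28 to 0.0079), −0.56 over Hspd1 and Hspe1 and −0.16 over all 10, beside 0.0026 over all genes and 0.020 over those that averaged 50 FPKM or more. Although each TRiC ring holds 1 copy of every subunit, their mRNA levels per length spanned 2.59-fold in wt/fl and 2.67-fold in fl/fl cells. The coefficient of variation over the 8 subunits was 0.367 in wt/fl and 0.386 in fl/fl. The share of each subunit in the TRiC sum moved by at most 1.68 percentage points between the genotypes. That largest shift was for Cct2, from 15.9% in wt/fl to 17.6% in fl/fl, and the shares of Cct8, Cct3 and Cct4 were lower in fl/fl by less than 1 point.
For 4 TRiC genes, part of the exon bases in GENCODE M21 also belongs to a gene on the other strand, and the amplification kit is not stated to keep strand. Tcp1 shares 20.6% of its exon bases (with Acat3 and Mrpl18), Cct6a 18.4% (with Psph), Cct7 8.77% (with Pradc1) and Cct8 8.01% (with Usp16). Fragments from those bases cannot be assigned to 1 strand. Cct2, Cct3, Cct4, Cct5, Hspd1 and Hspe1 share none.

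**Figure D3:**
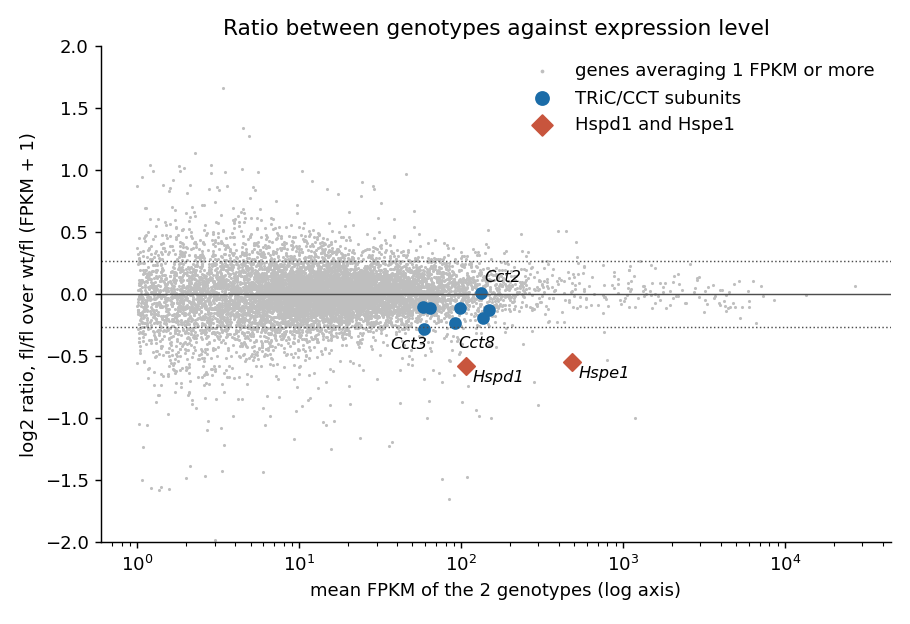
Log2 ratio of fl/fl over wt/fl (FPKM plus 1) against the mean FPKM of the genotypes (log axis) for the genes that averaged 1 FPKM or more, with the TRiC/CCT subunits as circles, Hspd1 and Hspe1 as diamonds, and dotted lines at 1.2-fold. Both diamonds and 1 circle (Cct3) lie below the lower dotted line, and 10 genes with a ratio beyond the axis are not drawn.

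Relatives of the chaperonins were at low levels. Cct6b, the copy of Cct6a used mainly in testis, was at 0.494 FPKM in wt/fl against 0.161 FPKM in fl/fl cells and is too low to compare. The chaperonin-like genes Mkks, Bbs10 and Bbs12, which help to assemble the complex mutated in Bardet-Biedl syndrome, were not lower in fl/fl. Mkks was at 7.93 and 8.09 FPKM in wt/fl and fl/fl, Bbs12 at 2.25 and 2.50 FPKM, and Bbs10 at 2.42 and 3.63 FPKM.

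The genes that work with TRiC were not lower as a group. Of 12 genes for prefoldin subunits and other TRiC cofactors, 0 were lower by 1.2-fold or more and 2 were higher, with a median log2 ratio of 0.046. Pfdn5, a prefoldin subunit, was at 782 FPKM in wt/fl against 769 FPKM in fl/fl cells, and Pdrg1, of a prefoldin-like complex, was at 57.2 and 56.6 FPKM. The extremes of the list were both prefoldin subunits, namely Vbp1 with a log2 ratio of −0.11 and Pfdn1 with 0.36.
Among proteins that TRiC folds, all 5 listed actins and actin-related proteins were higher in fl/fl, none of them by 1.2-fold, with a median log2 ratio of 0.16. Actb was at 2800 FPKM in wt/fl against 3074 FPKM in fl/fl cells, Actr3 of the Arp2/3 complex at 1017 and 1165 FPKM, and Actg1 at 529 and 615 FPKM, the highest ratio of the list (0.22). The smallest was that of Actr2 (0.072).
The 14 compared genes for tubulins and tubulin-folding cofactors had a median log2 ratio of 0.056, with 1 lower and 1 higher by 1.2-fold or more. Tbca, a cofactor that binds beta-tubulin, was at 375 and 367 FPKM in wt/fl and fl/fl, and Tubb5 at 153 and 165 FPKM. Tubb2a (1.83 and 0.705 FPKM) and Tuba1c (3.74 and 5.31 FPKM) were the extremes, both at low levels, and tubulin genes are close copies whose fragments may be split.
The 9 compared WD40-repeat and other clients had a median of 0.090, with 0 lower and 1 higher by that factor. Gnb2l1, a ribosome-bound scaffold also named Rack1, was at 1746 and 1858 FPKM and Gnb1, a G protein beta subunit, at 83.7 and 84.8 FPKM. The extremes were Strap (−0.010) and Cdc20 (0.42), an activator of the anaphase-promoting complex that was at 1.43 and 2.25 FPKM.

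The other mitochondrial chaperones and proteases did not share the lower level of Hspd1 and Hspe1. Of 13 genes, 0 were lower by 1.2-fold or more and 1 was higher, and the median log2 ratio was 0.038. Hspa9, the Hsp70 of the mitochondrial matrix, was at 54.4 FPKM in wt/fl against 54.7 FPKM in fl/fl cells, a log2 ratio of 0.0097. Hscb, a co-chaperone for iron-sulfur cluster assembly, was at 43.9 and 52.6 FPKM. The lowest ratio was that of Dnaja3, a mitochondrial J-protein (−0.12), and the highest that of Grpel2, a nucleotide exchange factor for Hspa9 (0.26).
The nucleolar growth genes, which like the chaperonins are abundant in growing cells, had a median log2 ratio of 0.11 over 12 genes, with 0 lower and 1 higher by 1.2-fold or more. Npm1 was at 429 and 485 FPKM in wt/fl and fl/fl, and Fbl, the methyltransferase of ribosomal RNA, at 144 and 162 FPKM. The extremes were Bop1 (−0.036) and Rrs1 (0.47).

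The lists of HSP70 and HSP90 chaperones had lower medians than TRiC, though not all of their members were lower in fl/fl. Of 9 genes of the HSP70 and HSP110 families, 6 were lower by 1.2-fold or more and 0 were higher, with a median log2 ratio of −0.35. Hspa8 was at 1574 FPKM in wt/fl against 788 FPKM in fl/fl cells, and Hsph1 at 129 and 40.3 FPKM, a log2 ratio of −1.65. The highest ratio of that list was that of Hspa2 (0.12), at 2.35 and 2.64 FPKM, and 3 of the 9 were not lower in fl/fl. Of 10 genes for HSP90 and its co-chaperones, 8 were lower and 0 higher by that factor, with a median of −0.63. Hsp90ab1 had 936 and 647 FPKM and a log2 ratio of −0.53, and Hsp90aa1, the stress-inducible form, had 387 and 208 FPKM and a log2 ratio of −0.89. Chordc1, an HSP90 co-chaperone, was at 81.8 and 40.4 FPKM and had the lowest ratio of its list (−0.999). Fkbp5, another co-chaperone, had the highest (0.030), at 6.59 and 6.75 FPKM. On this measure Hspd1 and Hspe1 thus lay between the medians of these lists, and each TRiC subunit was nearer to 0 than either median. The HSP70 median was the value of Hspa1a, at 1.267 and 0.777 FPKM in wt/fl and fl/fl. At that level the added 1 strongly shrinks the ratio. Without it, the wt/fl level of Hspa1a was 1.631 times that in fl/fl, beside 1.498 for Hspd1 and 1.46 for Hspe1. The place of the pair relative to the HSP70 median therefore depends on the added 1. With 1 value per genotype the difference between the groups could not be tested.

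**Figure D4:**
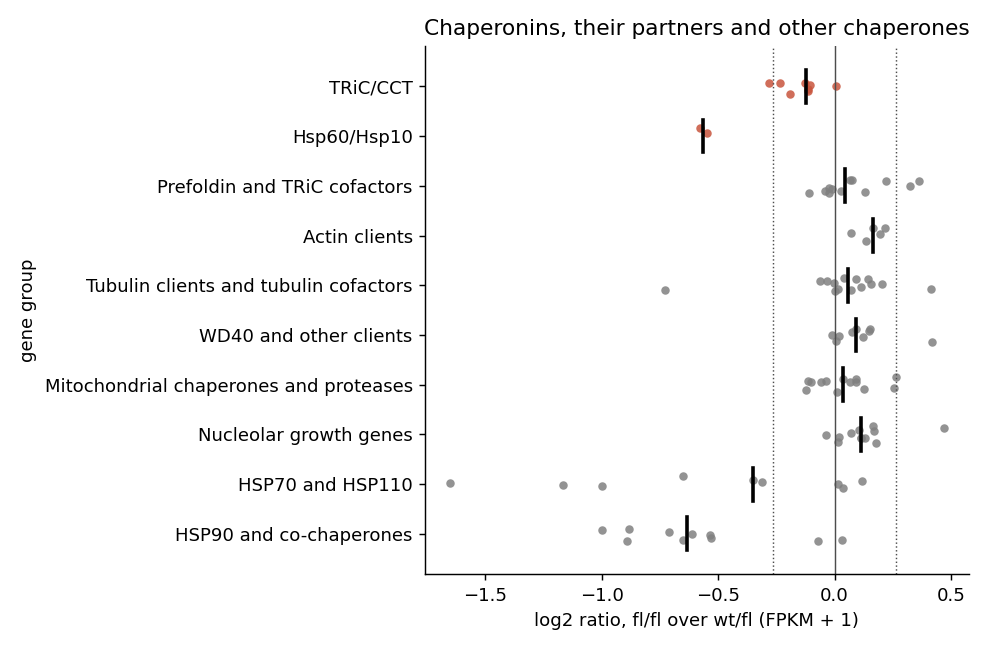
Log2 ratio of fl/fl over wt/fl (FPKM plus 1) for each gene that averaged 1 FPKM or more (points) in the chaperonin groups (red) and in the lists of partners, clients and other chaperones (grey), with black bars at the medians and dotted lines at 1.2-fold. The Hsp60/Hsp10 median is −0.56 and the HSP90 median −0.63, the TRiC median is −0.12, and the medians of cofactors, clients and mitochondrial chaperones lie between 0.038 and 0.16.

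Markers of some other cells differed between the genotypes too, while the sums for T cells and macrophages differed little. All 6 compared neutrophil markers were lower in fl/fl, and the 8 listed summed to 364 FPKM in wt/fl against 64.6 FPKM in fl/fl. Elane and Mpo were too low to compare, at 0.119 and 0.0916 FPKM in wt/fl and both at 0 in fl/fl. Of the 4 erythroid markers found in the deposited table, Beta-s, a beta-globin, was at 52.0 and 7.08 FPKM, and the 4 summed to 55.2 and 7.52 FPKM. The other listed globins had no row of their own name, so this sum leaves them out. Summed T cell markers were at 22.8 and 21.4 FPKM and macrophage markers at 14.5 and 13.5 FPKM. The 4 plasma cell markers found there summed to 69.6 and 61.6 FPKM, most of it Irf4, which B cells also express, while Igj was at 5.40 and 0.617 FPKM. The 8 proliferation genes summed to 17.6 and 13.7 FPKM. The 10 chaperonin genes summed to 1524 FPKM in wt/fl against 1225 FPKM in fl/fl. The part of these other cells in the chaperonin values was not tested.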

How the data were processed

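RNA of sorted follicular B cells was extracted with TRIzol and RNeasy columns, amplified with the Ovation RNA-Seq system V2 and made into TruSeq Nano libraries. The submitters' processing notes name Bowtie, TopHat and Cufflinks, without versions, and the builds mm10 and GRCm38. The table itself carries mm9 positions (118 of its 25017 rows lie on unplaced sequences with mm9 names, and member genes are shifted from GRCm38), so mm9 is stated for its positions, with starts counted from 1. The authors deposited 1 pooled FPKM per genotype for each group of transcripts with the same coding sequence. The columns of the authors' own comparison (fold change, statistic, p, q and status) were not used. Rows were summed per gene name, and 25 names that read as dates (44 rows) were left out. Ratios were log2 of FPKM plus 1, fl/fl over wt/fl, over genes averaging at least 1 FPKM, and a difference was counted from 1.2-fold. With 1 value per genotype there was no test, and depth is unknown.

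The members and lists were chosen with earlier results of these data known. Named genes were all members, Myh9, 4 chaperonin relatives and, per pathway list, the 2 highest levels and both extreme ratios. Of cell markers, only sums and examples are given. Pfdn6 and 6 marker names had no row of their own, among them the globins, which the table joins under shared names. Motifs and windows came from RefSeq (GRCm38.p6), exon overlaps and pseudogenes from GENCODE M21 basic. Protein sequences were not used here. The alternatives were other pseudocounts, scalings, limits on level and fold, and the strongest row in place of the sum. Python 3.11.15, pandas 2.3.3 and numpy 2.4.6 were used, and the counting was tested on simulated data.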

Additional observations from a re-analysis of the deposited data

How the results depend on the processing

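No paired analysis was possible because the replicate values of each genotype were pooled, and for the same reason no replicate could be left out. A value was taken as unchanged when a log2 ratio moved by less than 0.1 or a count or share by no more than 1.5 times. The 50 recomputed ratios of single chaperonin genes all met this, under pseudocounts of 0.1 and 0.5, upper quartile scaling, quantile normalization and the strongest row per gene. Much of this was fixed in advance. Each chaperonin gene has a single row, pseudocounts matter little above 50 FPKM, and the upper quartile factor was 0.9958. The limit of 0.1 is also about as large as the ratios of several TRiC genes, so it says little about those. Hspd1 ranged from −0.58 to −0.56, Hspe1 from −0.60 to −0.55 and Cct2 from 0.0018 to 0.019. The TRiC median without each subunit in turn lay between −0.13 and −0.11. The count of lower chaperonin genes depended on the fold, with 5 at 1.1-fold and 0 at 1.5-fold in place of 3. The shares of all genes past 1.2-fold were 4.82% lower and 4.21% higher at a mean of at least 50 FPKM, and 4.8% were higher with no limit on FPKM. What moved them was only the set of genes counted. The unknown depth and the missing replicates limit every ratio near 1.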

Other observations

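The genes on either side of the Hspd1 and Hspe1 pair on chromosome 1 (mm9), taken as the nearest that averaged 1 FPKM or more, had ratios nearer to 0 than the pair itself. Coq10b, which ends 5131 bases before Hspd1, was at 6.95 FPKM in wt/fl against 6.19 FPKM in fl/fl cells, a log2 ratio of −0.14. Sf3b1, a splicing factor gene that ends 50355 bases before it, was at 161 and 167 FPKM, a ratio of 0.049. On the other side Mob4, which starts 39927 bases beyond Hspe1, was at 22.2 and 20.7 FPKM, a ratio of −0.092, and Rftn2 and Mars2 further on had ratios of 0.11 each. The nearest gene on each side, Coq10b and Mob4, was thus also lower in fl/fl, by less than the pair, while Sf3b1, Rftn2 and Mars2 were higher. A difference over the whole neighbourhood was not tested.

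Among the 7509 genes with both a RefSeq promoter window and an average of 1 FPKM or more, 46 had a window with a row of 3 heat shock element units. Of these, 9 (19.6%) were lower in fl/fl by 1.2-fold or more and 1 (2.17%) was higher, beside 7.92% and 6.85% of all 7509 genes. The 9 include Hspd1, Hspe1, Hsph1 and Chordc1, which had been picked as chaperones. Some listed chaperones had windows with other motif matches but no row of 3 units. Of those, Stip1 (log2 ratio −0.88), Hspa1b (−0.65), Fkbp4 (−0.61) and Hspa1a (−0.35) were lower by 1.2-fold or more. Cdc37, Fkbp5, Hspa14 and Hspa2 were not. Of the 42 genes outside the chaperone lists, 5 (11.9%) were lower and 1 (2.38%) was higher, with a median log2 ratio of −0.025 beside 0.0029 for all 7509. Among the 5, Cd209a, Mgmt and Cntd1 were weakly expressed, with means of 1.56, 2.30 and 1.07 FPKM. Bst2 and Ccnd3 averaged 24.4 and 14.1 FPKM. The row of 3 units was searched for after the values were seen, most genes that hold it differed little (Rps18, for instance, was at 2727 and 2759 FPKM), and the comparison has no test.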
